A study of Mus musculus with 7 samples.

Results

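The replication-dependent histone genes were examined as a set of regions in 2 lists of accessible chromatin peaks from mouse retinal endothelial cells. Every protein-coding gene whose symbol begins with Hist1h, Hist2h, Hist3h or Hist4h was taken, 67 genes of 21938, comprising 6 linker histone H1 genes, 18 H2A, 18 H2B, 12 H3 and 13 H4 genes. A peak was a member if it overlapped such a gene extended by 2 kb on each side. The members were 70 of the 606661 peaks of the early G1 list and 39 of the 383721 peaks of the late G1 list. A further 369 early and 222 late peaks lay within 100 kb of the gene blocks and served as the flank.

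The cells came from retinas of mice at postnatal day 6 that carried the FUCCI reporter, a fluorescent reporter of cell cycle position, and both groups shared that genotype. Endothelial cells were sorted as PI-CD31+CD45- and then by reporter colour, blank for early G1 (3 libraries) and red for late G1 (4 libraries). Chromatin accessibility was measured by ATAC-seq, in which a transposase cuts and tags open DNA. The libraries of each group had been merged before peaks were called, so there was 1 list per group, no error between replicates and no test between groups. The labels do not state whether each library was taken from its own animal.

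Replication-dependent histone genes supply the bulk of histone protein while DNA is copied, and their transcription rises as cells pass from G1 into S phase. NPAT, a coactivator that is a substrate of cyclin E and CDK2, gathers at their promoters in a nuclear compartment, the histone locus body. Most are short and without introns, and their messages end in a conserved stem-loop, bound by SLBP, in place of a poly(A) tail. H2A and H2B genes often stand as divergent pairs that share the DNA between their starts.

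Below are stretches between or before the starts that the results turn on, read from the GRCm38 (mm10) genome sequence of RefSeq, 5′ to 3′. The first was the only divergent pair spanned by 1 peak in both lists, the next 2 were pairs whose late peak spanned or nearly spanned the gap, and the last 3 preceded the starts of H4, H3 and H1 genes covered in both lists. Capitals mark exact matches, on either strand, to words of elements known from histone promoters: the CCAAT box (CCAAT or ATTGG), the TATA box (TATAAA or TTTATA), the octamer of H2A and H2B genes (ATTTGCAT or ATGCAAAT), the H1 box (AAACACA or TGTGTTT) and the H4 element (GGTCCG or CGGACC).
Hist1h2bf to Hist1h2ad (chr13:23574197-23574380, + strand): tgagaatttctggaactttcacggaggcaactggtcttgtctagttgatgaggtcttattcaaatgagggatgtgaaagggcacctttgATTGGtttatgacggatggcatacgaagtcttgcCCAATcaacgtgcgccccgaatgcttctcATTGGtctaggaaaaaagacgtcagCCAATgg
Hist1h2ae to Hist1h2bg (chr13:23571221-23571395, + strand): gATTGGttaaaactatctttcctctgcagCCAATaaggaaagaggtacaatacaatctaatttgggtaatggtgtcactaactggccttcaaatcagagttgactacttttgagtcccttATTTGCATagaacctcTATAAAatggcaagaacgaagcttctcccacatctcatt
Hist1h2ac to Hist1h2bc (chr13:23683949-23684198, + strand): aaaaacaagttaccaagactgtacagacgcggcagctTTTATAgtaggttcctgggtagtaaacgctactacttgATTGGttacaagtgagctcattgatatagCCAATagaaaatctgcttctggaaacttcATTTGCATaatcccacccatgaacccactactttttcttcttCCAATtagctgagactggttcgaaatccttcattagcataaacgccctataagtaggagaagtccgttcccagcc
Hist1h4c, 200 bases before the start (chr13:23698455-23698654, - strand): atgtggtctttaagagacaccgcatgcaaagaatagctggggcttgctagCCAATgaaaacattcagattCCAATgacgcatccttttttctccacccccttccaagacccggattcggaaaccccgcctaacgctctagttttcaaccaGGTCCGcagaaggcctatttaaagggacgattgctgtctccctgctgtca
Hist1h3e, 200 bases before the start (chr13:23562370-23562569, - strand): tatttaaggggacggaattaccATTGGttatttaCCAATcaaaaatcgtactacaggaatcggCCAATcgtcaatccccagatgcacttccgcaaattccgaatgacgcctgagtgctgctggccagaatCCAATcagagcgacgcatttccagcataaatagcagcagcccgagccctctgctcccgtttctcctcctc
Hist1h1e, 200 bases before the start (chr13:23622559-23622758, - strand): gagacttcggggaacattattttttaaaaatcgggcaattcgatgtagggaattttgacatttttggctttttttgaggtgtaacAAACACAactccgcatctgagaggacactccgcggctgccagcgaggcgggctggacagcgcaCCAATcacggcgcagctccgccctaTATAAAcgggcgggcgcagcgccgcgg

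These words were common in the set. In the window from 250 bases before to 50 after each start, CCAAT words stood in 56 of the 67 histone promoters (83.6%), against 39.0% of all protein-coding promoters. TATA words stood in 37 (55.2%), against 12.6%. The octamer stood in 15 (22.4%), against 1.57%, and those 15 were 7 H2A and 8 H2B promoters. The H4 element stood in 12 of the 13 H4 promoters, and in 22.4% of histone against 9.60% of all promoters. The H1 box stood in 4 of the 6 H1 promoters, and in 13.4% of histone against 6.40% of all promoters. All 18 H2A and all 18 H2B promoters held a CCAAT word, whereas 4 of the 13 H4 promoters did. These are matches of letters and were not tests of binding.

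The 2 lists differed in size, so each was read against its own background. The caller used 137191808 early and 124693948 late fragments. Peaks of the early list covered 40.5% of the sequenced genome and those of the late list 13.3%. Marker counts are to be read beside all protein-coding genes, of which 62.4% of starts lay under an early and 32.4% under a late peak. Of 10 endothelial marker genes, the starts of 6 (60%) lay under an early peak. Those of 2 (20%), Tie1 and Esam, lay under a late peak, so neither share was above that of all genes. The starts of Pecam1, which encodes the sorted antigen CD31, and of Tek and Erg lay under no peak in either list. Photoreceptor and progenitor markers are given only in part. The starts of Crx and Pax6 lay under early peaks only and those of Rcvrn and Pde6b under late peaks only. In that set 1 other marker was under no peak in either list. Pericyte and smooth muscle markers gave 3 and 2 of 6, erythroid markers 2 and 0 of 4, and leukocyte and microglia markers 0 of 5 in both. The part of other cell types in the histone values was not tested.

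Histone gene starts were covered at shares near those of all gene starts, slightly above them in the early list and below them in the late list. An early peak covered the annotated start of 45 of 67 histone genes, 67.2% (exact 95% binomial interval 54.6 to 78.2%), beside 62.4% of all protein-coding genes. A late peak covered 17 starts, 25.4% (15.5 to 37.5%), beside 32.4% of all genes. Both intervals hold the value for all genes, and they are for counting error only, since neighbouring genes share peaks. With the start codon in place of the annotated start, 49 genes were covered early and 18 late, and no such share was computed for all genes. The annotated starts of Hist1h1d, Hist1h2be, Hist1h3f and Hist4h4 lay under no peak, yet their start codons lay under early peaks. The start codon of Hist1h3f lay under a late peak too.

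In all, 13 starts (19.4%) were covered in both lists, beside 24.5% of all genes, and 32 (47.8%) in the early list only, beside 37.9%. The late list alone covered 4 starts (5.97%), beside 7.90% of all genes, namely those of Hist1h2bg, Hist1h3c, Hist2h2ab and Hist2h3c2. The nearest early peak lay 126, 980, 213 and 217 bp from these starts, in that order. The remaining 18 (26.9%) were under no peak, beside 29.7%. Ribosomal protein genes had 76.2% of 84 starts covered in the early and 44.0% in the late list. Olfactory and vomeronasal receptor genes, which are silent in most cells, had 34.5% and 9.70% of 1464. In both lists the histone genes thus stood between these sets.

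**Figure D1:**
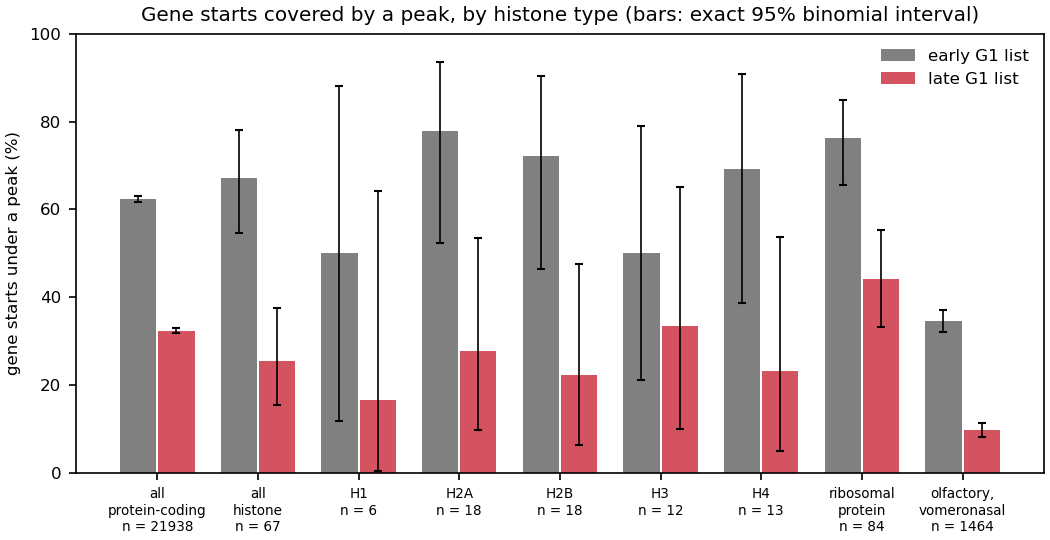
Share of gene starts under a peak (y axis, percent) for all protein-coding genes, all histone genes, each histone type and 2 compared gene sets, in the early G1 list (grey) and the late G1 list (red). Error bars are exact 95% binomial intervals. Histone genes reached 67.2% and 25.4%, and the intervals of the 5 types overlap one another within each list.

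Among the 6 H1 genes, whose proteins bind the DNA between nucleosomes, 3 starts were covered by early peaks and 1 by a late peak. Hist1h1a had the early peak of highest pileup, 29.56 fragments, where pileup is the caller's value for the peak and is not scaled to depth. That peak was 4506 bp long (chr13:23760732-23765237) and also covered the starts of Hist1h4a and Hist1h3a. Hist1h1e was the H1 gene covered in the late list, by a peak of 1607 bp at a pileup of 31.95, and its early peak was 1075 bp long at 20.60, the lowest pileup of any early peak over a histone start. Hist1h1b, Hist1h1d and the testis gene Hist1h1t had no peak over the annotated start in either list. The start codon of Hist1h1d (chr13:23555090) stands apart from its annotated start (chr13:23553262) and lay under an early peak.

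H2A and H2B, which form the dimers on the outside of the nucleosome, had 14 of 18 and 13 of 18 starts covered by early peaks and 5 and 4 of 18 by late peaks. For H2A the highest early pileup was 40.49, at Hist2h2aa1, and the highest late pileup 62.46, at Hist2h2aa2, a near-identical copy. For H2B the highest early pileup was 34.99, at Hist1h2bn, and the highest late pileup 56.01, at Hist1h2bb. Every H2A and H2B gene had an early peak within 500 bp of its start, 18 of 18 in each type, beside 80.6% of all genes.

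H3 and H4 form the tetramer at the core of the nucleosome. H3 had 6 of 12 starts under early peaks and 4 of 12 under late peaks, and H4 had 9 and 3 of 13. The late H3 starts were those of Hist1h3e (pileup 20.61), Hist1h3a (36.80), Hist1h3c (56.01) and Hist2h3c2 (62.46). The late H4 starts were those of Hist1h4c (29.38), Hist1h4a (36.80) and Hist2h4 (163.11). In the early list the highest H3 pileup was 40.49, at Hist2h3c1, and the highest H4 pileup was 39.44, at Hist1h4b, under a peak of 232 bp (chr13:23756980-23757211). The late list had a peak 76 bp from the start of Hist1h4b but none over it.

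**Figure D2:**
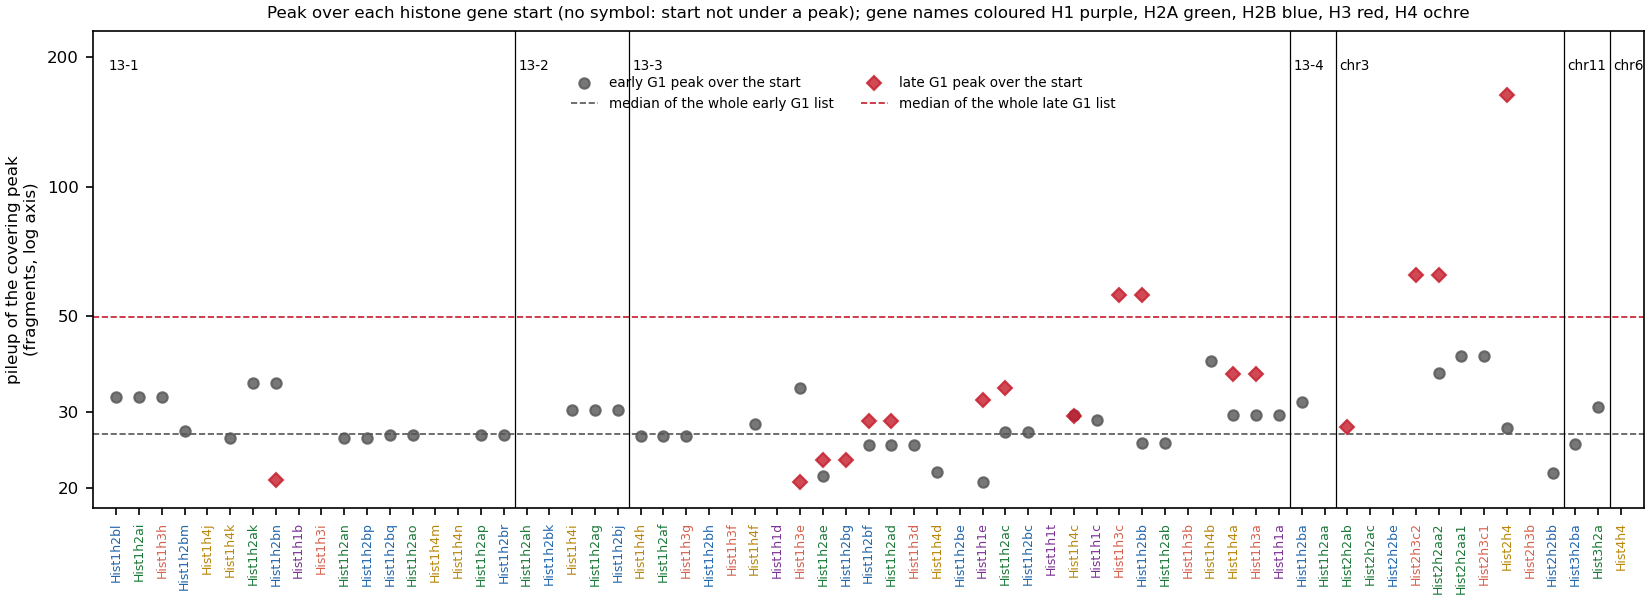
Pileup (y axis, fragments, log axis) of the early (grey circle) and late (red diamond) peak over each of the 67 histone gene starts, in genomic order by block (13-1 to 13-4 are the 4 blocks on chromosome 13). Genes without a symbol had no peak over the start. Dashed lines are the medians of the whole lists, 26.72 early and 49.78 late, which are not comparable between lists, and the late symbol of Hist2h4 at 163.11 stands apart from the rest.

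Peaks over histone starts varied widely in rank within their lists. The 29 early peaks that covered a histone start had a median pileup of 27.15 and ranged from 20.60 to 40.49, and 16 of them (55.2%) exceeded the median of the whole list, 26.72. Early peaks over any protein-coding start exceeded it in 74.6% of cases. By pileup, the highest histone start peaks stood near the top of the early list, at percentile 97.7 for Hist2h2aa1 with Hist2h3c1 and 97.1 for Hist1h4b. Their folds over local background were 2.30 and 3.07, beside a median of 2.09 for the whole early list. The early peak over Hist2h2aa2, at percentile 94.5 of pileup, had a fold of 1.87, so a high pileup did not always mean a high fold. The 12 late peaks over histone starts had a median of 30.67, below the median of 49.78 for the whole late list, and 3 of the 12 (25.0%) exceeded it. Late peaks over any protein-coding start exceeded it in 35.4% of cases, so low pileup at starts was general in the late list.

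The 3 late peaks above the list median were those over Hist2h4, over Hist2h3c2 with Hist2h2aa2, and over Hist1h3c with Hist1h2bb. That over Hist2h4 was 1296 bp long, with a fold of 10.1 over local background and a −log10 q-value of 130.8, and its pileup lay at the 90.9th percentile of the list. The early peak over the same start was 302 bp long at 27.60. In length, 9 of the 12 late peaks (75%) exceeded the list's median of 681 bp, beside 76.6% of late peaks over any protein-coding start. Of the 29 early peaks 19 (65.5%) exceeded the median of 1334 bp, beside 83.1%. All 12 late peaks overlapped an early peak, beside 90.2% of late peaks over any protein-coding start.

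The 2 highest late peaks of the histone windows lay off the starts, and the third highest was the one over Hist2h4. Of the 27 late members that covered no histone start, 14 (51.9%) exceeded the list median of pileup, about the share of the whole list, and their median length was 472 bp. The highest, at 176.78 (chr13:23580195-23580757, 563 bp, fold 15.8), was centred 1122 bp upstream of the Hist1h4d start. The next, at 168.59 (chr13:23619093-23619372, 280 bp), lay inside the annotated span of Hist1h2be. That span (chr13:23583670-23621124) is far longer than the other histone genes because the annotated 5′ end lies distant from the coding exon.

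Within the Hist1h2be span, 6 late peaks without a start had pileups from 94.22 to 168.59, and 2 of the 6 overlapped an early peak, beside 66.4% of the whole late list and 71.2% of the flank. With Hist1h2be left out of the gene set, an alternative added after the data were seen, 34 late members remained and their median pileup went from 34.13 to 28.97. In the early list the 6 peaks without a start in that span had a median of 24.51, below the list median. Outside it, 8 of 21 late peaks off the starts (38.1%) exceeded the list median, among them 134.76 near Hist1h4h (236 bp) and 141.22 near Hist4h4 (409 bp).

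**Figure D3:**
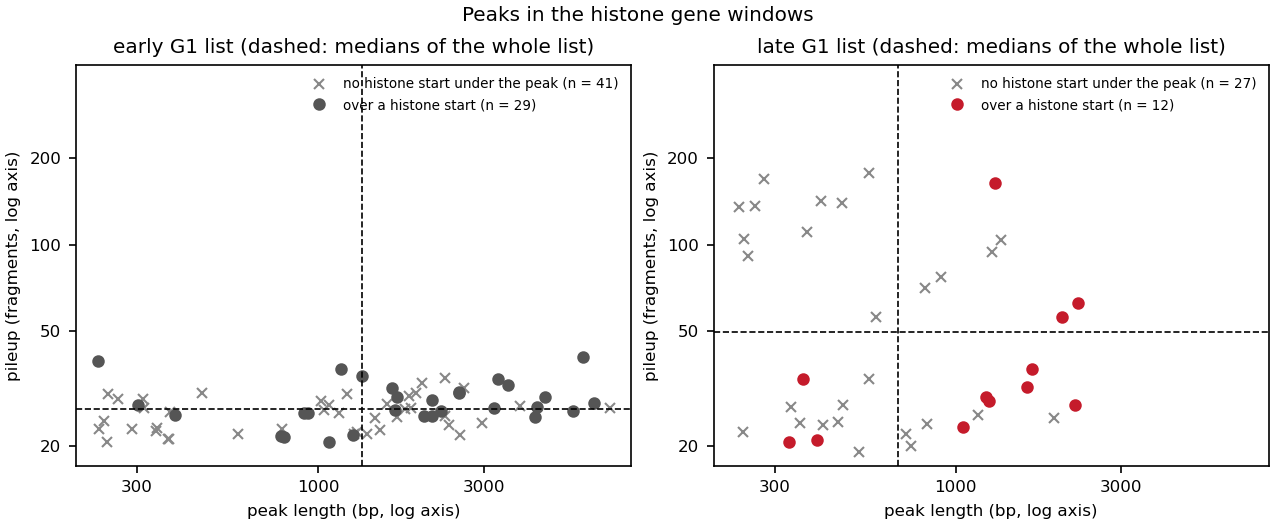
Length (x axis, bp, log axis) against pileup (y axis, fragments, log axis) of the 70 early and 39 late peaks in the histone gene windows. Filled circles cover a histone start, crosses do not, and dashed lines are the medians of the whole list. Early peaks reached 40.49 at most, while the late peaks above 100 fragments were crosses except the one over Hist2h4.

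The longest members of the early list measured 6931 bp (chr6:136805658-136812588, over the start of the variant gene H2afj and no histone start), 6260 bp (chr13:23546524-23552783, over Hist1h4f at 28.16) and 5799 bp (chr3:96243349-96249147, over Hist2h2aa1 and Hist2h3c1). The longest of the late list measured 2259 bp (chr3:96238151-96240409, over Hist2h3c2 and Hist2h2aa2), 2213 bp (chr3:96218626-96220838, over Hist2h2ab at 27.64) and 2031 bp (chr13:23744841-23746871, over Hist1h3c and Hist1h2bb). The peak over Hist2h2ab also covered the start of the non-histone gene Bola1. Median lengths of all members were 1421.5 bp early and 563 bp late, beside 1408 and 731.5 bp in the flank. Median pileups were 26.49 and 34.13, beside 26.03 and 58.41 in the flank.

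Several peaks reached across neighbouring histone genes. The 45 early starts lay under 29 peaks, of which 6 covered 2 starts and 5 covered 3. The 17 late starts lay under 12 peaks, of which 5 covered 2 starts. One early peak (chr13:23530382-23535806) joined Hist1h4h, Hist1h2af and Hist1h3g, genes of 3 types. Another (chr13:23572710-23576937) joined Hist1h2bf, Hist1h2ad and Hist1h3d, and in the late list its H2A and H2B starts stayed under 1 peak while Hist1h3d was 1134 bp from the nearest peak.

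Among the histone genes were 13 divergent pairs with starts within 1 kb of each other, 12 of an H2A with an H2B gene and 1 of Hist1h2bh with Hist1h3f. One early peak spanned both starts in 8 pairs (61.5%), beside 76.9% of the 719 other divergent protein-coding pairs. One late peak spanned 2 pairs (15.4%), beside 48.3%. These were Hist1h2bf with Hist1h2ad, by 1246 bp at a pileup of 28.55, and Hist1h2ae with Hist1h2bg, by 1049 bp at 23.26. The first was also spanned in the early list (4228 bp at 25.18), whereas the early peak at the second covered 28.8% of the 175 bases between the starts, printed above.

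In 2 more pairs a late peak covered 1 start and most of the gap. At Hist1h2ac and Hist1h2bc it covered 81.7% of the 250 bases, at 34.15 over 362 bp, and stopped 46 bp short of the Hist1h2bc start. At Hist1h2ak and Hist1h2bn it covered 95.3% of 295 bases, at 20.83 over 398 bp, and stopped 14 bp short of the Hist1h2ak start. These short distances matter for the count, because whether a start is called covered rests on a peak's edge. Of the 50 starts without a late peak, 7 had one within 100 bp, and 29 of 67 genes (43.3%) had a late peak within 500 bp, beside 48.5% of all genes. In the early list 60 of 67 (89.6%) did.

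**Figure D4:**
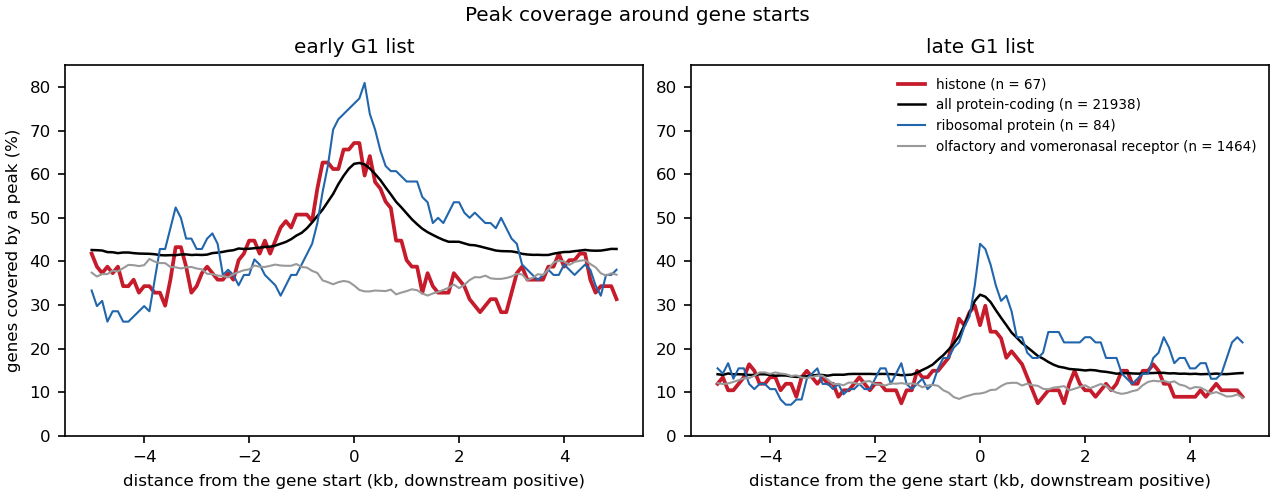
Share of genes covered by a peak (y axis, percent) at each distance from the start (x axis, kb, downstream positive) in the early (left) and late (right) list, for histone genes and 3 compared sets. In the early list histone genes were highest, at 67.2%, at the start and 100 bp downstream. In the late list they were highest, at 29.9%, both 100 bp upstream and 100 bp downstream, with 25.4% at the start. At 1 kb downstream they stood at 40.3% and 10.4%, below all protein-coding genes.

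Coverage around histone starts was raised over a short stretch. In the early list it was 67.2% at the start and averaged 36.7% at 3 to 5 kb, a ratio of 1.83, and all genes gave 62.4% and 42.0%, a ratio of 1.49. In the late list it was 25.4% and 11.9%, a ratio of 2.14, beside 2.30 for all genes and 3.01 for ribosomal protein genes. The late ratio depends on the position taken. Late histone coverage was 29.9% both 100 bp upstream and 100 bp downstream of the start, where all genes stood at 30.9% and 31.9%. At 1 kb downstream, late coverage was 10.4% for histone genes and 19.3% for all genes, and early coverage 40.3% and 51.03%. The median histone gene was 539 bp long, so that this point lay past the end of most of them. Receptor genes dipped at the start in the late list, with a ratio of 0.795.

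With the blocks pooled, the bases of the gene windows were covered at slightly lower shares than their surroundings. Early peaks covered 39.2% of the windows, 42.6% of the flank and 43.3% of the windows of all protein-coding genes. Late peaks covered 12.01%, 13.8% and 14.3%. The blocks differed. Early shares below the flank were 29.5% at chr13:21715763-21837530, 37.1% at chr13:23933773-23934851 and 38.9% at chr13:23531050-23764406. Those above it were 44.2% on chromosome 11, 47.8% on chromosome 3, 52.5% at chr13:22035164-22043676 and 55.3% on chromosome 6. In the late list the chromosome 3 windows stood above the flank, at 23.0%. Every other block stood below it, from 0% to 12.4%. No late peak lay within 2 kb of 20 of the 67 genes (29.9%), beside 4.79% of all genes, whose median length of 17425 bp makes their windows far longer. Within 2 kb of the start alone, 23 histone genes (34.3%) had no late peak, beside 25.9% of all genes. One gene, Hist1h4j, had no early peak in either window (1.49%), beside 1.19% of all genes for the gene window and 3.73% for the start window.

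The 3′ ends were examined through the stem-loop. It was found by its known pattern in 60 of 67 genes, and its 2 commonest forms and the H4 forms are shown because they sort by type. Capitals mark the whole stem-loop, given as DNA on the sense strand.
38 genes, none of them H4 (an example is Hist1h2ac): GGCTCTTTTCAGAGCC
9 genes, none of them H4 (an example is Hist1h3e): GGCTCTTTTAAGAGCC
8 genes, all H4: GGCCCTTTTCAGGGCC
2 H4 genes, Hist1h4i and Hist2h4: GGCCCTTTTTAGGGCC
1 H4 gene, Hist1h4a: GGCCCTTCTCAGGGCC

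Each of the 11 H4 stem-loops thus began with GGCCC and none of the other types did. An early peak covered 39 of the 60 stem-loops and a late peak 13. No share at matched 3′ positions was computed for other genes. For scale, 500 bp downstream of the start 58.7% of all protein-coding genes were covered early and 25.4% late. Histone genes stood at 56.7% and 17.9% there. All 17 starts under a late peak belonged to genes with a stem-loop, which 60 of all 67 genes had. The 7 genes in which none was found had 5 early and 0 late starts covered. Those 7 include Hist1h2bq and Hist1h2br, where 0% of 100-base words around the start occur once in the genome. Likewise all 17 had a CCAAT word in the promoter, as did 56 of all 67 genes. The 11 genes without that word had 5 early and 0 late starts covered. These counts are small and were chosen after the values were seen. A TATA word was in 12 of the 17 late-covered promoters and in 37 of all 67.

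The 2 large blocks of the Hist1 cluster on chromosome 13 had like shares of starts covered in the early list and unlike shares in the late list, a difference that was not tested. The block at chr13:21715763-21837530 holds 18 genes, of which 13 starts (72.2%) were covered early and 1 (5.56%), that of Hist1h2bn, late. The block at chr13:23531050-23764406 holds 29 genes, of which 21 (72.4%) were covered early and 12 (41.4%) late. Leaving out the first block was not planned in advance and, given that block's low late share, could only raise the late share of the rest. Without it, histone starts were covered in 65.3% of cases early and 32.7% late, beside 62.4% and 32.4% for all genes. The median late pileup of members was 22.87 over 10 peaks in the first and 36.80 over 19 peaks in the second of these blocks. Both lie below the list median of 49.78. The members of the second include the 6 peaks off the starts in the Hist1h2be span, at 94.22 to 168.59.

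Sequence copies touch the first block. Uniqueness was the share of 100-base words within 500 bp of a start that occur once in the genome, and its median was 83.8% over the histone genes and 100% over all protein-coding genes. In the first block the median was 64.3%, and 6 of its genes were under 50%, with Hist1h2bq, Hist1h2ao, Hist1h2ap and Hist1h2br at 0%. Those 4 starts still lay under early peaks, at 26.47 and 26.48. Leaving out the 6 genes left 12, of which 9 starts were covered early and 1 late. How the aligner placed reads with several matches is not given in the sources used here, so a value at such a gene cannot be told apart from that of its copy.

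The other 2 small blocks of chromosome 13 had no late start covered. At chr13:22035164-22043676 the early list covered 3 of 5 starts, those of Hist1h4i, Hist1h2ag and Hist1h2bj, under 1 peak of 2549 bp at 30.34. At chr13:23933773-23934851 stand Hist1h2ba and Hist1h2aa, a pair known from testis, where an early peak of 1634 bp at 31.63 covered the start of Hist1h2ba and no late peak lay within 2 kb of either gene.

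**Figure D5:**
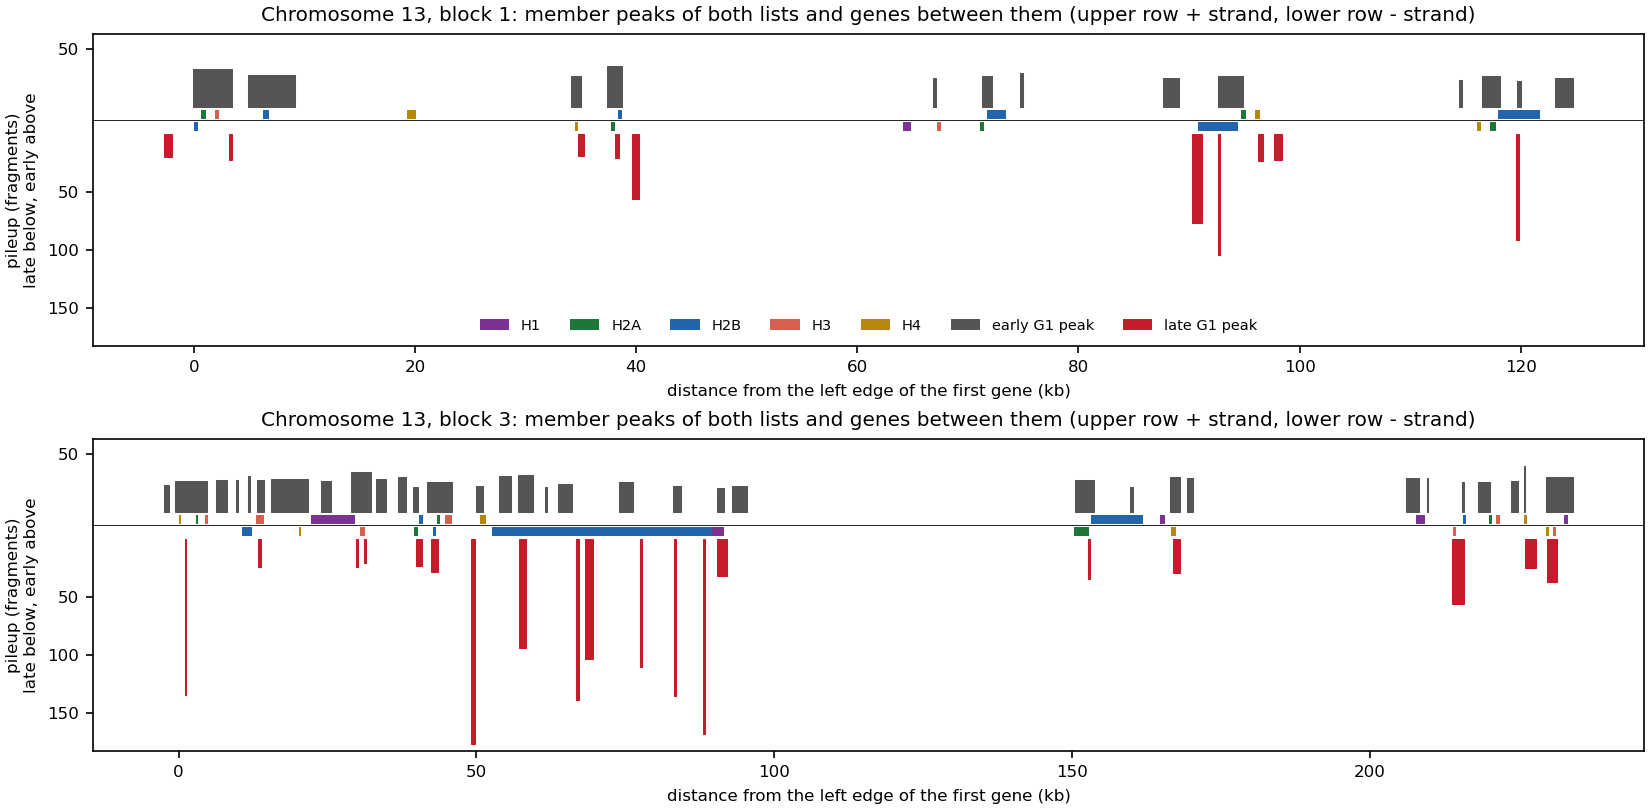
Maps of the blocks with 18 genes (top) and 29 genes (bottom) on chromosome 13, with distance from the first gene on the x axis (kb). Bars show member peaks, early upward and late downward, drawn to scale in width and with height equal to pileup (fragments), and coloured boxes between them are genes by type. The run of tall late bars in the left part of the lower map lies upstream of Hist1h4d and inside the long Hist1h2be box, at 94.22 to 176.78, while late bars over starts in that map reach 56.01 at most.

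The Hist2 block on chromosome 3 (chr3:96219865-96270132) had late peaks over 4 of its 10 starts and early peaks over 5. Late peaks covered 23.0% of its windows, beside 13.3% of the chromosome. Hist2h4 and Hist2h2aa2 were covered in both lists, Hist2h2ab and Hist2h3c2 in the late list only, and Hist2h2aa1, Hist2h3c1 and Hist2h2bb in the early list only. The starts of Hist2h2ac, Hist2h2be and Hist2h3b were under no peak, with late peaks 42, 281 and 203 bp away. Hist2h2bb had an early peak of 783 bp at 21.67, and a late peak lay 79 bp from its start.

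Hist2h3c2 with Hist2h2aa2 and Hist2h2aa1 with Hist2h3c1 are 2 near-identical copies facing away from each other. In the late list the first copy lay under the peak of 2259 bp and the second was 5088 bp (Hist2h2aa1) and 6276 bp (Hist2h3c1) from the nearest peak. In the early list the second lay under the peak of 5799 bp at 40.49, and Hist2h2aa2 of the first under one of 1162 bp at 36.89. Only 9.99% to 43.2% of the 100-base words at these 4 starts were unique, so that which copy the reads came from is uncertain.

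On chromosome 11, Hist3h2ba and Hist3h2a had early peaks of 2127 bp at 25.24 and 2553 bp at 30.79 over their starts and no late peak there. The early peak over Hist3h2a also covered the start of the non-histone gene Trim17. A late peak of 472 bp at 27.67 lay inside Hist3h2a, 545 bp from its start. On chromosome 6 the start of Hist4h4 was under no peak. An early peak of 1998 bp at 33.03 ended 18 bp inside that gene's start, and a late peak of 335 bp at 27.12 ended 57 bp inside it.

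Genes outside the clusters that make or handle histones are set here beside the shares for all genes, 62.4% early and 32.4% late. Of 19 genes for the transcription and processing of histone messages, 15 starts (78.9%) were covered early and 12 (63.2%) late, among them Npat, with a pileup of 36.53 early and 31 late, and Slbp, with 35.28 and 63.83. Casp8ap2, a histone locus body protein, and Hinfp, which binds the H4 element, were covered in both lists. Of the kinase and cyclins that act on NPAT, the starts of Cdk2 and Ccne1 were under no peak in either list, and that of Ccne2 was under an early peak at 27.62. Of 11 replacement variant genes, whose products are made outside S phase too, 8 starts (72.7%) were covered early and 5 (45.5%) late (H2afz, H2afv, H2afx, H2afj and H1fx). Of 12 histone chaperone genes 6 (50%) and 5 (41.7%) were covered, Asf1a, Asf1b and Chaf1b in both lists.

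The 38 other protein-coding genes within 100 kb of the blocks had 18 starts (47.4%) covered early and 12 (31.6%) late, beside 62.4% and 32.4% of all genes. Hfe, the iron regulator that neighbours Hist1h1c, and Trim38 were covered in both lists. Btn1a1 was covered in the late list only, at 75.04, and the phosphate transporter genes Slc17a1 and Slc17a4 in the early list only. Vmn1r188 and Vmn1r189, vomeronasal receptor genes, were covered in neither.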

How the data were processed

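ATAC-seq was made from 7 libraries, 3 of early G1 and 4 of late G1, grouped by sample titles. The submitters' processing notes name MACS2, STAR, Trimmomatic and bedtools, with mm10 as the build. MACS2 2.2.7.1 was run in broad mode by the authors on the merged fragments of each group, with no control and all duplicates retained, per the file headers. The signal is the deposited pileup, not scaled to depth, and a peak's fold is the deposited ratio to local background. Percentiles given above are ranks of pileup within a list. The stricter lists below follow the −log10 q-value as deposited. Its heading was damaged, and column order identified it. Duplicates can raise a pileup, and broad calls join neighbouring regions. Pileups are the authors' values for a pool and were used only within a list. With neither replicates nor counts per library, no difference between groups was tested.

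Genes and 5′ ends came from GENCODE M21, sequence from RefSeq GRCm38.p6. Overlap meant at least 1 bp, and peak starts were counted from 1. Tools were numba 0.67.0, SciPy 1.17.1, pandas 2.3.3, NumPy 2.4.6 and Python 3.11.15. Overlaps and word counts were tested on simulated data. Named genes were those of highest pileup per type and list, those covered late only, those in spanned divergent pairs, those on chromosomes 3, 6 and 11, those at the 3 longest and 3 highest peaks of each list, and examples from the lists. A few others, at near misses or pairs, in small blocks or in peaks over 3 starts, were singled out after their values were seen. Genes, lists and alternatives were chosen with earlier results of these data known. Stricter lists, other windows, gene subsets and a start codon in place of the 5′ end were the alternatives. The values of 2 marker genes and 1 promoter sequence are not reported here.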

Additional observations from a re-analysis of the deposited data

How the results depend on the processing

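Of 75 alternative values 53 stayed within the interval of the reported value, or within 1.5 times it for counts and covered bases. Of the 22 that did not, 19 came from stricter lists, which hold fewer peaks. With peaks above the list's median −log10 q (303327 early and 191859 late peaks), starts were covered in 50.7% of histone genes early, 7.46% late and 2.99% in both, beside 43.2%, 11.5% and 6.10% of all genes. Members numbered 38 and 17, median pileups were 28.70 and 104.83, and covered bases 25.8% and 5.22%. With the 191860 strongest peaks of each list, starts were covered in 34.3% early, 7.46% late and 1.49% in both, beside 29.3%, 11.5% and 4.44% of all genes. Members then numbered 22 and 17, the early median length was 1837.5 bp, median pileups 29.98 and 104.83, and covered bases 15.7% and 5.22%. Counting any peak within 500 bp of the start gave 89.6%, 43.3% and 40.3%. The start codon, genes with a stem-loop, chromosome 13 alone, unique starts and other windows moved no value past those limits. No paired analysis was possible because each group is 1 pooled list, and for the same reason no library could be left out. Depth per library is not known.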
